A study of Mus musculus with 12 samples.

Results

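The BCL2 family was followed in bone marrow-derived macrophages through 10 of its genes, found by gene symbol among the 47937 genes with deposited read counts. The pro-apoptotic members were Bax, Bak1, Bid, Bcl2l11 (BIM) and Pmaip1 (NOXA), and the anti-apoptotic members were Bcl2, Bcl2l1 (BCL-XL), Mcl1, Bcl2a1b and Bcl2a1d (A1). All 10 were among the 11760 genes with enough reads for a test.

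Macrophages were grown with CSF-1 from bone marrow of C57BL/6 mice, and RNA was sequenced in 4 groups of 3 libraries each. M0 were resting cells without the inhibitor, and IFNγ + LPS were cells given IFNγ (50 ng/ml) and LPS (20 ng/ml) for 18 h. Each was also studied with T863 (50 μM), a small molecule inhibitor of DGAT1 (DGAT1i), the enzyme that attaches the last fatty acid in triacylglycerol synthesis. The labels give 18 h for the other 3 groups but no time for M0 alone. The methods of the study can be read as giving M0 the same time, and if it differed, it cannot be told apart from the treatment in comparisons with M0. In 2 of the 3 libraries of M0 with DGAT1i another field of the labels numbers the compound T864 or T865, and they were read as T863. The labels do not say whether the libraries of a group came from separate mice or cultures, and p-values measure the spread between these libraries, which may be technical. Libraries held between 4996014 and 6621671 reads, so that a normalized level of 1 CPM (reads scaled to the size of the library) rests on 4.28 to 7.58 reads. The 10 macrophage genes summed to 14333 to 15550 CPM in M0, 17240 to 19269 CPM in M0 with DGAT1i, 9456 to 10048 CPM after IFNγ + LPS and 8789 to 9657 CPM with both. With IFNγ + LPS 6 of the 10 fell and 3 rose, and with DGAT1i in stimulated cells 5 fell and 1 rose. Their part in the results on the family was not tested. The defining genes of T and NK cells, B cells, mast cells, red cells and stromal cells were at or near 0. The 3 monocyte genes summed to 30.8 to 32.4 CPM in M0 and 80.4 to 91.1 CPM after IFNγ + LPS, where 2 rose and 1 fell. With DGAT1i they summed to 9.56 to 14.4 CPM and 37.3 to 50.2 CPM. Dendritic cell genes summed to 0.27 to 0.84 CPM in M0 and 5.99 to 7.79 CPM after IFNγ + LPS. With DGAT1i they summed to 0.26 to 0.57 CPM and 1.24 to 2.10 CPM. The part of either in the results was not tested.

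Proteins of this family decide whether the outer mitochondrial membrane stays closed. BAX and BAK1 open pores in it, which lets cytochrome c out and starts the caspases. BCL2, BCL-XL, MCL1 and A1 hold BAX and BAK1 in check, and the BH3-only proteins BIM, BID and NOXA bind to the guardians or directly to the pore formers. In macrophages and other myeloid cells MCL1 and A1 are short-lived proteins whose genes answer to inflammatory signals.

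The A1 genes lie as near-identical copies on chromosome 9, and this bears on how far their reads can be separated. On GRCm38, Bcl2a1b (ENSMUSG00000089929.1) spans chr9:89199209-89207827 on the plus strand and Bcl2a1d (ENSMUSG00000099974.1) spans chr9:88723285-88731914 on the minus strand, each with 2 exons. The copy Bcl2a1a, which was not among the 10 genes but shares their reads, spans chr9:88956900-88962419 on the plus strand. The coding sequences of these 3 copies are 516 bases long, and 12 of these bases differ among them. The first 100 coding bases, shown because they hold 7 of the 12 differences, are printed 5′ to 3′ with the differing bases in capitals.
Bcl2a1a: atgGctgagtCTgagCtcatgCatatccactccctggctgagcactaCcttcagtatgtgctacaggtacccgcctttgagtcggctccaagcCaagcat
Bcl2a1b: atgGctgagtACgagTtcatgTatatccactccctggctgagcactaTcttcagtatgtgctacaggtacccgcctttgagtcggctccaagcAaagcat
Bcl2a1d: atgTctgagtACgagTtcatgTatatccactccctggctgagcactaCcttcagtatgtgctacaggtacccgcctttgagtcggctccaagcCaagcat
Bcl2a1b and Bcl2a1d were identical at 98.8% of their coding bases. Of all 50-base windows of a coding sequence, 52.7% in Bcl2a1b and 83.5% in Bcl2a1d were found unchanged in another copy. How the counting treated reads that match several copies is not given in the sources used here, so the values of the single copies are uncertain and their sum is given beside them.

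Promoters were searched, in windows from 250 bases before to 50 bases after each start site in RefSeq on GRCm38.p6, for 5 motifs of factors that act downstream of LPS, IFNγ or growth factor withdrawal. The motifs were read on both strands, with N for any base. GGGNNTTTC (κB-like), GAAANNGAA (IRF) and TTCNNNGAA (STAT) were in 4.36%, 8.56% and 8.3% of 32851 windows. TGACGTCA (CRE) and GTAAACA (FOXO) were in 1.79% and 3.65%. The κB-like letters also match sequences that are not κB sites. Mcl1 held the κB-like letters 27 bases before its start site, and 1 of the 3 windows of Bcl2l1 held them at 217 bases before. In 1 window of Bcl2l11 the FOXO letters stood 227 bases before the start site, and its other window held no motif. No other window of a member held a motif. The stretches of Mcl1 and Bcl2l11 are shown because these genes changed most in reads among members with a match, with the matched letters in capitals and on the plus strand, at chr3:95658621-95658720 and chr2:128125788-128125887.
Mcl1: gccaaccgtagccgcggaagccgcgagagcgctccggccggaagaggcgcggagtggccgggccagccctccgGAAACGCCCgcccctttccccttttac
Bcl2l11: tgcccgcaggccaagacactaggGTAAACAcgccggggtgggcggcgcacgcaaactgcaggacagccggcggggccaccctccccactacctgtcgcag
A match describes the letters and does not show that a factor binds there, and the Pmaip1 promoter was not analysed here.

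**Figure D1:**
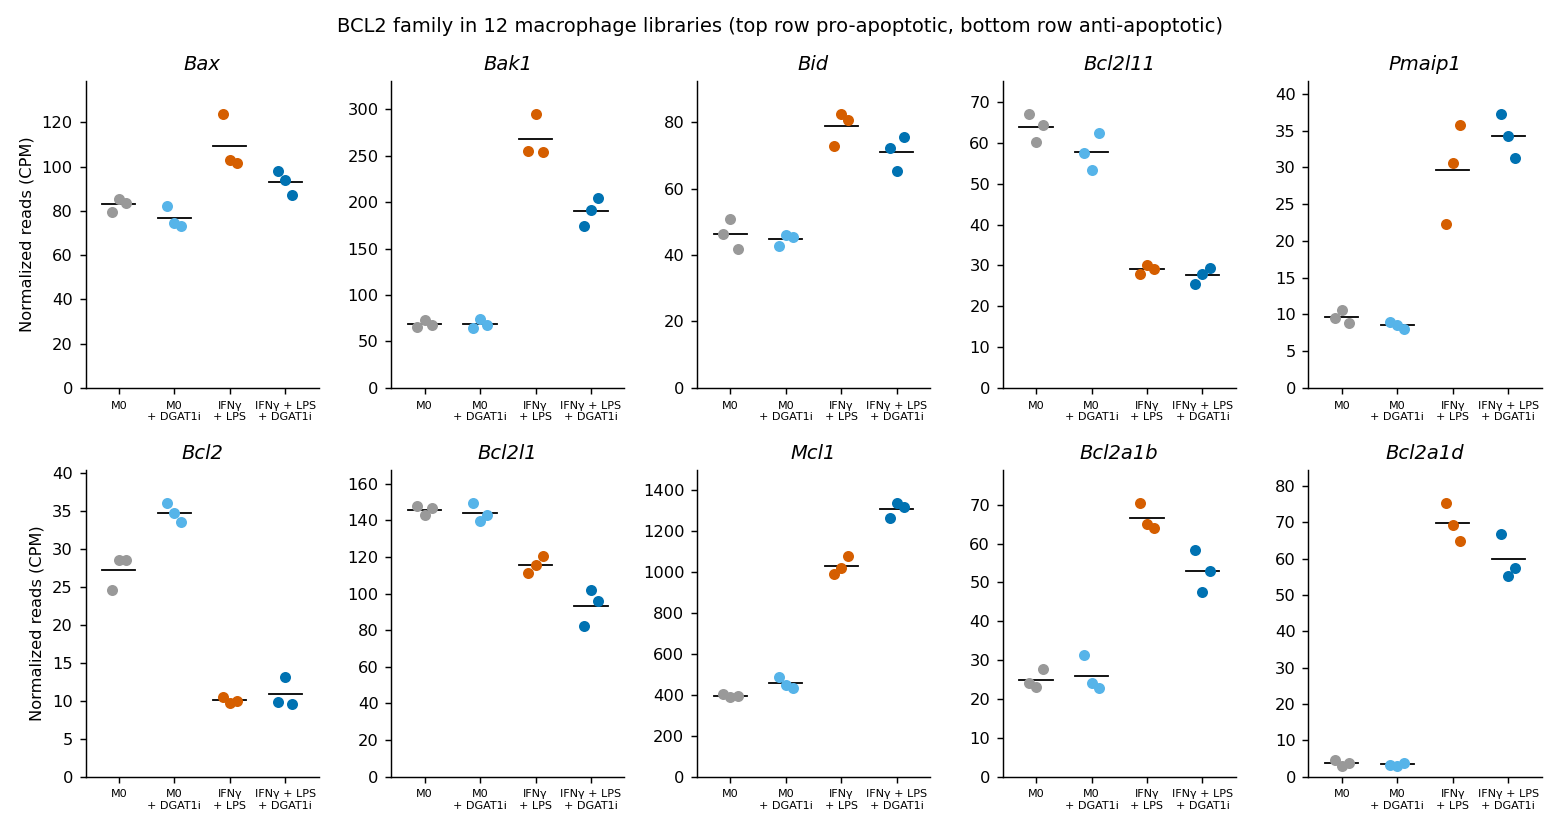
Normalized reads of the 10 genes (vertical axis, CPM after TMM scaling, each panel from 0) in the 12 libraries by group (horizontal axis), with points for libraries and lines for the means of 3. Bcl2a1d stood between 2.93 and 4.65 CPM in M0 and between 64.8 and 75.4 CPM after IFNγ + LPS, and Bak1 after IFNγ + LPS was lower in each library with DGAT1i than in each without.

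The first comparison asked how inflammatory activation changed the family in the absence of the inhibitor. All 10 genes passed the threshold after IFNγ + LPS, with 7 higher and 3 lower. Of all genes tested, 37.1% were called higher and 36.2% lower in this comparison, so that a change as such is common here. The median log2 fold change was 1.07 over the 10 genes against 0.01 over all genes, and the median of the absolute values was 1.40 against 0.59. Scaling by library size alone lowered the median of all genes to -0.46 and left 25% of all calls on the higher side, against 50.6% with TMM scaling, and under it the sign of Bax turned.

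Among the pore formers, Bak1 (ENSMUSG00000057789.13, chr17:27019810-27029009) was counted at 66.0, 73.0 and 67.5 CPM in the M0 libraries and at 255, 295 and 254 CPM after IFNγ + LPS. Every stimulated library stood far above every resting one, a 3.89-fold difference (log2 fold change 1.96, standard error 0.07, edgeR adjusted p = 3.17e-31). Adjusted p-values are those of the quasi-likelihood test in edgeR, corrected by Benjamini-Hochberg over all genes tested. Bax (ENSMUSG00000003873.10, chr7:45461697-45466898) stood at 79.6, 85.4 and 83.7 CPM in M0 and at 124, 103 and 102 CPM after IFNγ + LPS. Its groups did not overlap, but the 1.32-fold difference was small beside that of Bak1 (log2 fold change 0.40, standard error 0.07, edgeR adjusted p = 1.34e-06) and turned to -0.07 (edgeR adjusted p = 0.326) when libraries were scaled by size only. Exons of Bak1 overlap those of Ggnbp1 on the other strand, which had 43 reads in M0 and 18 after IFNγ + LPS, against 1487 and 4207 on Bak1. Of the exon bases of Bax, 12.2% are shared on the same strand with Gm45808, whose reads are not given here.

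Of the BH3-only genes, Pmaip1 and Bid rose and Bcl2l11 fell. Pmaip1 (ENSMUSG00000024521.7, chr18:66458533-66465565), whose product NOXA binds MCL1 and A1, was counted at 9.44, 10.7 and 8.77 CPM in M0 and at 22.3, 30.6 and 35.8 CPM after IFNγ + LPS. It was 3.08-fold higher (log2 fold change 1.62, standard error 0.14, edgeR adjusted p = 1.21e-15), with a mean of 29.6 ± 6.79 CPM (SD, n = 3) in the stimulated libraries. Bid (ENSMUSG00000004446.12, chr6:120891930-120916853), the link from death receptors to mitochondria once caspase-8 cuts its protein, stood at 46.3, 50.9 and 41.8 CPM in M0 and at 72.9, 82.4 and 80.7 CPM after IFNγ + LPS. This was a 1.70-fold rise (log2 fold change 0.77, standard error 0.08, edgeR adjusted p = 7.08e-13). On the opposite strand 17.7% of the exon bases of Bid are also exons of Bcl2l13, which had a log2 fold change of -0.01 in the same comparison.

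Bcl2l11 (ENSMUSG00000027381.16, chr2:128126038-128162547) encodes BIM, a BH3-only protein that binds all the guardians. It stood at 67.1, 60.3 and 64.5 CPM in M0 and at 28.0, 30.1 and 29.0 CPM after IFNγ + LPS. The stimulated libraries lay close together at less than the lowest M0 library, 2.20-fold lower (log2 fold change -1.14, standard error 0.09, edgeR adjusted p = 2.14e-17).

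The guardians moved in opposite directions. Mcl1 (ENSMUSG00000038612.16, chr3:95658788-95663176) was counted at 402, 387 and 395 CPM in M0 and at 991, 1020.0 and 1079 CPM after IFNγ + LPS. All stimulated libraries were above all resting ones, a 2.61-fold rise (log2 fold change 1.38, standard error 0.05, edgeR adjusted p = 5.46e-31). Bcl2a1d stood at 4.65, 2.93 and 3.76 CPM in M0 and at 75.4, 69.1 and 64.8 CPM after IFNγ + LPS. Its 18.4-fold rise (log2 fold change 4.21, standard error 0.13, edgeR adjusted p = 6.21e-35) was the largest of the 10 genes. For Bcl2a1b the counts were 24.1, 23.0 and 27.7 CPM in M0 and 70.5, 65 and 63.9 CPM after IFNγ + LPS, a 2.66-fold rise (log2 fold change 1.41, standard error 0.10, edgeR adjusted p = 2.35e-18).

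By contrast, Bcl2 and Bcl2l1 fell. Bcl2 (ENSMUSG00000057329.7, chr1:106538178-106714274), the founding guardian of the family, stood at 24.6, 28.5 and 28.5 CPM in M0 and at 10.5, 9.72 and 9.93 CPM after IFNγ + LPS. No stimulated library came near a resting one, a 2.71-fold difference (log2 fold change -1.44, standard error 0.13, edgeR adjusted p = 9.09e-15). Bcl2l1 (ENSMUSG00000007659.18, chr2:152780668-152831728) was counted at 148, 143 and 147 CPM in M0 and at 111, 116 and 120.3 CPM after IFNγ + LPS, 1.26-fold lower (log2 fold change -0.33, standard error 0.06, edgeR adjusted p = 3.73e-06). Counts per gene do not separate the splice forms of Bcl2l1, Bcl2l11 and Mcl1, some of which encode proteins of opposite action.

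Because A1 is also abundant in neutrophils, their genes were looked at beside it. The 11 neutrophil genes summed to 53.8 to 62.9 CPM in M0 and to 196 to 215 CPM after IFNγ + LPS. Csf3r stood at a mean of 24.5 CPM in M0 and made up most of the sum after IFNγ + LPS, at 188 CPM, while Ly6g and Retnlg had no read in any library. Of the 5 neutrophil genes tested Csf3r rose, Ltf (-2.93) and Ngp (-2.60) fell on the log2 scale, and S100a8 (0.34) and S100a9 (-0.36) did not pass the threshold. Genes of cycling cells went the other way, from a sum of 875 to 1098 CPM in M0 to 16.9 to 24.3 CPM after IFNγ + LPS. The share of reads from mitochondrial genes was 4.72% to 4.86% in M0 and 3.88% to 4.21% after IFNγ + LPS. The part of these in the changes above was not tested. In RNA from whole cultures, fewer cells of a type and less RNA per cell cannot be told apart.

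**Figure D2:**
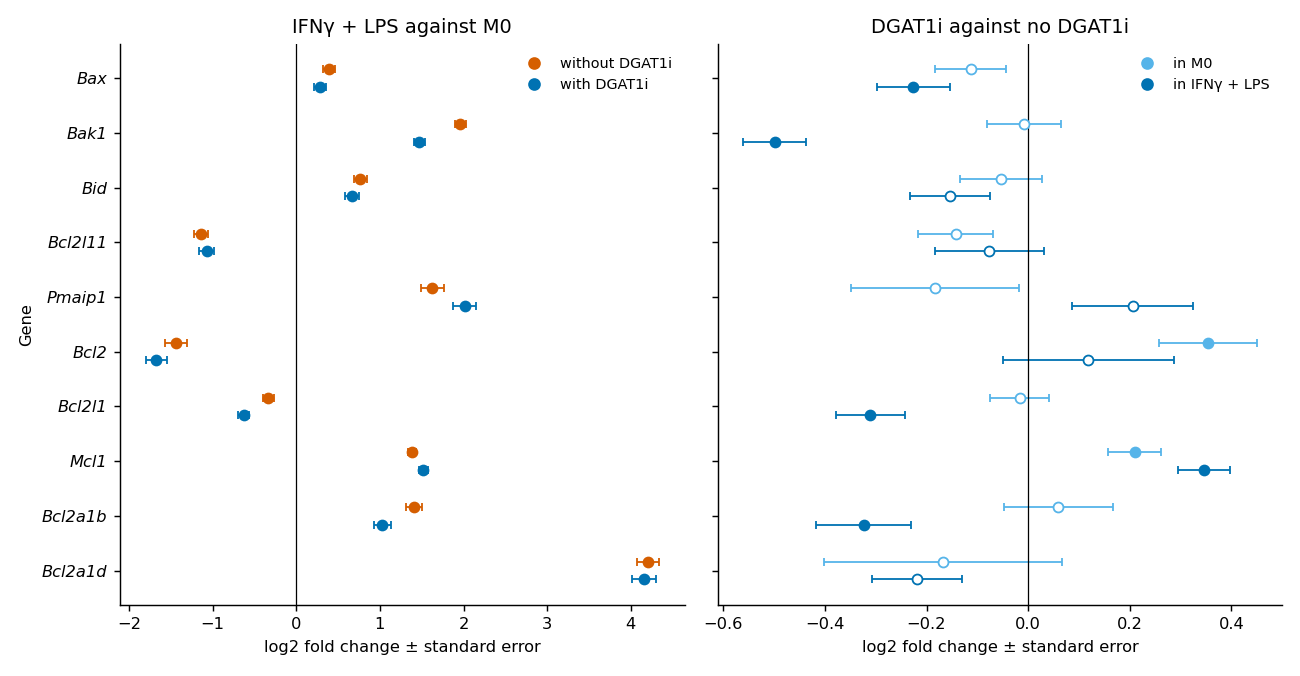
log2 fold changes (horizontal axes) of the 10 genes with standard errors, for IFNγ + LPS against M0 on the left and for DGAT1i on the right, filled where the edgeR adjusted p was under 0.05. All changes by IFNγ + LPS are past the threshold, with or without DGAT1i, while DGAT1i moved Bak1 by -0.50 and Mcl1 by 0.35 in IFNγ + LPS.

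The next comparison asked what DGAT1i did to the family in stimulated macrophages. Mcl1 was higher with the inhibitor, and Bak1, Bcl2l1, Bcl2a1b and Bax were lower, so that 1 gene rose, 4 fell and 5 were not past the threshold. Of all genes tested, 13.5% were called higher and 16.3% lower. The median log2 fold change of the 10 genes was -0.19 against -0.01 for all genes, and the median absolute value was 0.22 against 0.21.

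Bak1 stood at 175, 192 and 204 CPM with DGAT1i, below each of the stimulated libraries without it. Its level was 1.41-fold lower (log2 fold change -0.50, standard error 0.06, edgeR adjusted p = 6.73e-09) and remained 2.77-fold above that of M0 with DGAT1i. Bax was counted at 98.0, 94.1 and 87.3 CPM with the inhibitor, again below all 3 stimulated libraries without it. The fold change was small (log2 -0.23, standard error 0.07, edgeR adjusted p = 0.0134) and rested on single libraries, since it was no longer past the threshold without IFNγ + LPS replicate 1 (log2 fold change -0.14) or without IFNγ + LPS with DGAT1i replicate 3 (log2 fold change -0.19).

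Mcl1 reached 1266, 1341 and 1321 CPM in stimulated macrophages with DGAT1i, above every library of every other group. This was 1.27-fold over IFNγ + LPS alone (log2 fold change 0.35, standard error 0.05, edgeR adjusted p = 2.47e-07). Bcl2l1 went the other way, to 82.5, 102 and 96.0 CPM, below each library of the 3 other groups. The log2 fold change against IFNγ + LPS was -0.31 (standard error 0.07, edgeR adjusted p = 2.66e-04).

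Bcl2a1b was counted at 58.5, 47.6 and 53 CPM with DGAT1i and did not overlap with IFNγ + LPS alone. The log2 fold change of -0.32 (standard error 0.09, edgeR adjusted p = 0.00610) was not past the threshold without replicate 2 of IFNγ + LPS with DGAT1i (-0.25, edgeR adjusted p = 0.0581). Bcl2a1d stood at 66.7, 55.3 and 57.4 CPM, and its highest library lay within the range of IFNγ + LPS alone. Its log2 fold change of -0.22 (standard error 0.09, edgeR adjusted p = 0.0541) narrowly missed the threshold and passed it without IFNγ + LPS replicate 3 (-0.27), without replicate 1 of IFNγ + LPS with DGAT1i (-0.31) or without M0 replicate 2 (-0.22). The reads of the 4 copies together were 163 ± 12.4 CPM (SD, n = 3) after IFNγ + LPS and 133 ± 14.8 CPM (SD, n = 3) with DGAT1i. Their sum was lower, with a log2 value of -0.29 (standard error 0.08, edgeR adjusted p = 0.00644).

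Neutrophil genes summed to 209 to 220.2 CPM in stimulated macrophages with DGAT1i, within and just above the range without it. Of the 5 of them that were tested, 4 were higher and 1 lower with the inhibitor, the calgranulin gene S100a8 at 34.5 against 9.13 CPM and Csf3r at 140.4 against 188 CPM. The share of reads from mitochondrial genes was 3.88% to 4.21% after IFNγ + LPS and 4.52% to 5.32% with DGAT1i as well, without overlap. The part of either in the values of the family was not tested.

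The other members of the family gave no call in this comparison. Pmaip1 stood at 37.3, 34.2 and 31.3 CPM with DGAT1i, within or just above the range of the stimulated libraries without it (log2 fold change 0.21, edgeR adjusted p = 0.196). With single libraries left out the value lay between 0.05 and 0.36, and only the highest, without IFNγ + LPS replicate 3, was past the threshold. Bid was counted at 72, 65.3 and 75.7 CPM (log2 fold change -0.15, edgeR adjusted p = 0.141). For Bcl2l11 the libraries stood at 25.5, 28.0 and 29.4 CPM (log2 fold change -0.08, edgeR adjusted p = 0.645), and for Bcl2 at 9.88, 13.1 and 9.57 CPM (log2 fold change 0.12, edgeR adjusted p = 0.646). The libraries with and without DGAT1i overlapped for each of these genes.

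In M0, where the same question was asked of resting cells, DGAT1i raised 2 guardians and left the other 8 genes short of the threshold. Of all genes tested, 11.0% were called higher and 13.4% lower, and scaling by library size alone took the higher share of the calls from 45.2% to 29.7%. Bcl2 stood at 36.1, 34.8 and 33.5 CPM with DGAT1i, above each M0 library (log2 fold change 0.35, standard error 0.10, edgeR adjusted p = 0.00390). Mcl1 was counted at 489, 447 and 434 CPM, also without overlap (log2 fold change 0.21, standard error 0.05, edgeR adjusted p = 0.00162). Genes of cycling cells summed to 364 to 412 CPM in these libraries against 875 to 1098 CPM in M0, and mitochondrial genes held 5.56% to 6.19% of the reads against 4.72% to 4.86%. The part of either in these differences was not tested.

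For the other 8 genes the libraries of M0 with and without DGAT1i overlapped, and the median log2 fold change of all 10 was -0.04 with a median absolute value of 0.13, against 0.17 over all genes. Bak1 was at 64.2, 73.8 and 67.7 CPM with the inhibitor and Bcl2l1 at 149.7, 139.7 and 143 CPM, with log2 fold changes of -0.01 and -0.02. Bax stood at 82.2, 74.5 and 73.2 CPM, with a log2 fold change of -0.11. Bcl2a1b was counted at 31.2, 24 and 22.7 CPM and Bcl2a1d at 3.32, 2.98 and 3.70 CPM, with log2 fold changes of 0.06 and -0.17. Bid was at 42.6, 46.1 and 45.3 CPM, Bcl2l11 at 57.7, 53.4 and 62.6 CPM and Pmaip1 at 8.90, 8.52 and 8.05 CPM, with log2 fold changes of -0.05, -0.14 and -0.18. For Bcl2l11 the value was past the threshold when libraries were scaled by size only (log2 fold change -0.20, edgeR adjusted p = 0.0416).

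Whether the inhibitor acted differently in stimulated and resting cells was tested as the difference between the 2 responses, which share no library. Bak1 (-0.49 on the log2 scale, standard error 0.10, edgeR adjusted p = 1.22e-04) and Bcl2l1 (-0.29, standard error 0.09, edgeR adjusted p = 0.0143) passed, both more negative in stimulated cells. Of all genes tested, 8.66% were called higher and 9.80% lower in this test, and with scaling by library size alone 58.2% of the calls were on the higher side against 46.9%. The Bcl2l1 difference was lost without replicate 1 of IFNγ + LPS with DGAT1i (-0.21, edgeR adjusted p = 0.0894) and with DESeq2 (-0.28, adjusted p = 0.0624). Bcl2a1b, at -0.38 (standard error 0.14, edgeR adjusted p = 0.0521), was just short of the threshold and passed it without M0 replicate 3, when either replicate 2 or 3 of M0 with DGAT1i was left out, or replicate 1 of the stimulated cells with DGAT1i, at -0.48 to -0.44. Mcl1 rose with DGAT1i in both states, and the difference of 0.14 (standard error 0.07, edgeR adjusted p = 0.203) was not past the threshold. The test also gave no call for Bcl2, which passed the threshold only in M0 (-0.23, standard error 0.19, edgeR adjusted p = 0.442).

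Activation was also compared in the presence of DGAT1i throughout. The same 7 genes were higher and the same 3 lower, against 35.3% of all genes called higher and 35.3% called lower (25.5% of the calls on the higher side with scaling by library size alone, against 50.0%). The log2 fold changes were 4.16 for Bcl2a1d, 2.01 for Pmaip1, 1.52 for Mcl1, 1.47 for Bak1, 1.03 for Bcl2a1b, 0.67 for Bid and 0.28 for Bax, and -1.67 for Bcl2, -1.07 for Bcl2l11 and -0.63 for Bcl2l1. As in the absence of the inhibitor, only the sign of Bax turned with scaling by library size (to -0.14, edgeR adjusted p = 0.0784). The activation comparisons with and without DGAT1i share no library, and the test of their difference is the one given above.

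The order of the 4 groups thus differed between the genes. For Mcl1 it was M0, M0 with DGAT1i, IFNγ + LPS and IFNγ + LPS with DGAT1i from low to high, with each inhibitor pair apart. For Bak1 the 2 resting groups did not differ beyond their spread, IFNγ + LPS with DGAT1i came next and IFNγ + LPS alone was highest. For Bcl2l1, IFNγ + LPS with DGAT1i was lowest, then IFNγ + LPS, then the resting groups together. Bcl2 was highest in M0 with DGAT1i, then M0, with the 2 stimulated groups not separated. In Bid, Bcl2l11, Pmaip1 and Bcl2a1d neither inhibitor pair passed the threshold. For Bcl2l11 in M0 and for Pmaip1 and Bcl2a1d in stimulated cells this depended on the scaling or on single libraries, as given above.

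**Figure D3:**
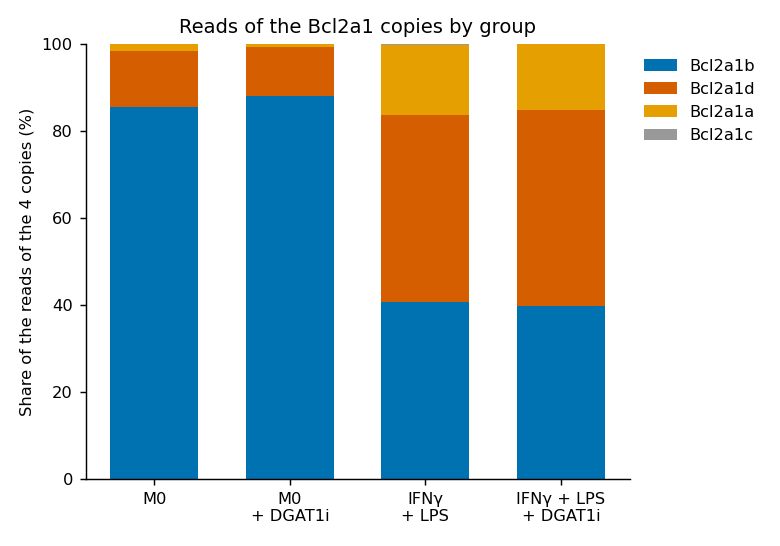
Share of the reads of the 4 Bcl2a1 copies (vertical axis, percent) counted on each copy, by group and summed over 3 libraries. Bcl2a1b took 85.5% in M0 and 40.8% after IFNγ + LPS, where Bcl2a1d took 42.8%.

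The copies of A1 were not counted in the same proportions at rest and after activation. In M0, 538 of the 629 reads on the 4 copies were on Bcl2a1b (85.5%, between 82.2% and 87.4% in single libraries), 81 on Bcl2a1d and 10 on Bcl2a1a. After IFNγ + LPS, 1037 of 2540 reads were on Bcl2a1b (40.8%, between 40.0% and 42.1%), 1088 on Bcl2a1d (42.8%) and 411 on Bcl2a1a (16.2%). With DGAT1i the shares of Bcl2a1b were 88.1% in M0 and 39.8% after IFNγ + LPS. The ranges of single libraries did not overlap between resting and stimulated groups. Bcl2a1c, a shorter copy on the same chromosome, had 0 reads in M0 and 4 after IFNγ + LPS. The exons of Bcl2a1b share 401 bases (49.1% of its exon bases) on the same strand with Gm29094, which had 2 reads in M0 and 8 after IFNγ + LPS. How the counting treated reads on these bases is not given, so Bcl2a1b may be undercounted. As a sum over the copies, A1 rose from 29.2 ± 2.76 CPM (SD, n = 3) in M0 to 163 ± 12.4 CPM (SD, n = 3) after IFNγ + LPS, 5.58-fold (log2 fold change 2.48, standard error 0.09, edgeR adjusted p = 1.71e-20).

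**Figure D4:**
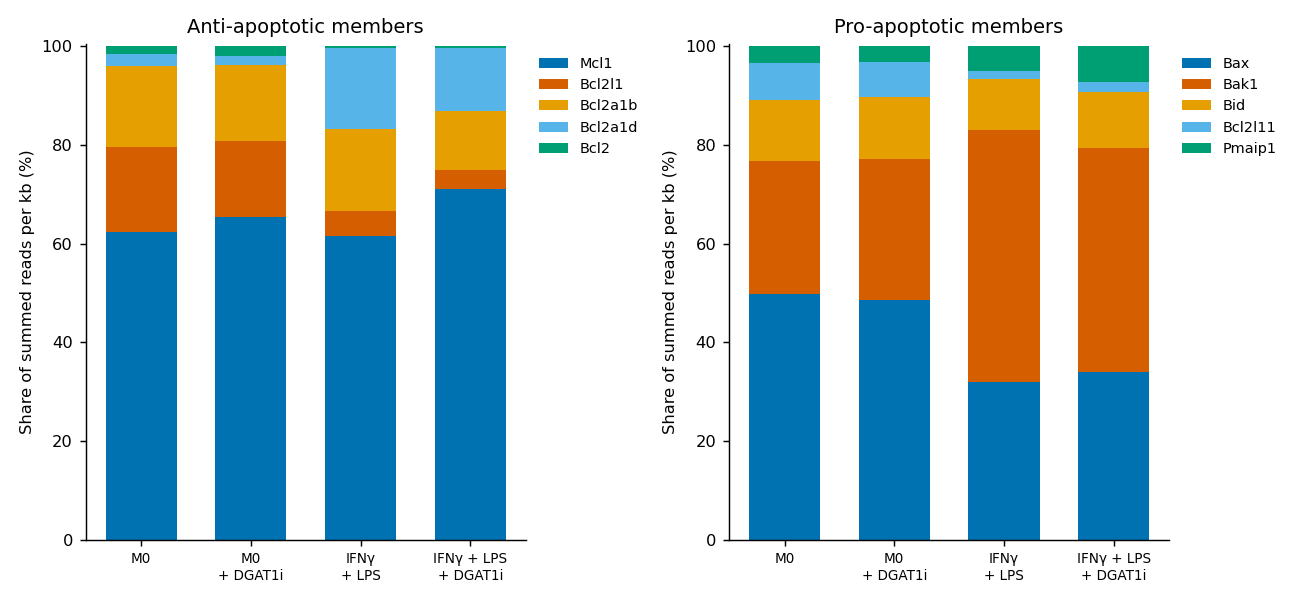
Make-up of the anti-apoptotic members (left) and the pro-apoptotic members (right) as shares of their summed reads per kb of exon (vertical axes, percent, means of 3 libraries) in the 4 groups. Mcl1 made up 61.5% to 71.1% of the guardians in every group, and Bak1 went from 27.0% of the pro-apoptotic members in M0 to 51.2% after IFNγ + LPS.

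Levels were compared between genes per kb of annotated exon. Mcl1 was the largest of the 5 guardians in every group, with 116 ± 2.22 CPM per kb (SD, n = 3) in M0 and 301 ± 13 CPM per kb (SD, n = 3) after IFNγ + LPS. Its share of the 5 was 62.4% in M0, 65.4% in M0 with DGAT1i, 61.5% after IFNγ + LPS and 71.1% with both, while Bcl2l1 went from 17.2% in M0 to 5.15% after IFNγ + LPS and 3.78% with DGAT1i as well. Bcl2a1d went from 2.36% to 16.5% and then 12.9% over the same groups, and Bcl2 from 1.61% to 0.224% and 0.220%. Among the 5 pro-apoptotic members Bax led in M0, with 52.6 ± 1.87 CPM per kb (SD, n = 3) against 28.6 ± 1.53 CPM per kb (SD, n = 3) for Bak1. After IFNγ + LPS the order was reversed, at 69.4 ± 7.94 and 111 ± 9.64 CPM per kb (SD, n = 3), and the share of Bcl2l11 went from 7.55% to 1.66%. Pmaip1 made up 3.33% of them in M0, 4.99% after IFNγ + LPS and 7.21% with DGAT1i as well. Levels per kb depend on which transcripts the cells use, and with the length of the longest annotated transcript 33 of the 40 shares moved by more than the SD of their group, by at most 9.75 percentage points. Under that length Mcl1 made up 54.8% of the guardians in M0 and 59.1% after IFNγ + LPS, so that its direction between these groups turned. The order of Bax and Bak1 also depended on the length, since with the longest transcript they stood at 99.4 and 112 CPM per kb after IFNγ + LPS and at 84.7 and 79.6 CPM per kb with DGAT1i as well. Bcl2l1 then went from 26.9% in M0 to 8.84% after IFNγ + LPS and 6.55% with DGAT1i as well.

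Genes with the pattern most like that of each member over the 12 libraries were listed by Pearson's r on log2 CPM, as a description, since the 4 groups make most of the pattern. Bak1 was closest to the transcriptional repressor gene Etv6 (r = 0.998), Bcl2a1d to the antigen presentation gene Tapbpl (0.999) and the chemokine gene Cxcl10 (0.998), and Mcl1 to Bnip3 (0.995). Bcl2 was closest to the sterol synthesis gene Hmgcs1 (0.992), Bcl2l1 to the transcription factor gene Maf (0.979) and Bcl2l11 to the biliverdin reductase gene Blvra (0.995). The closest genes were Cyc1 for Bax (0.954), Usp4 for Bid (0.988), Sbds for Pmaip1 (0.994) and Cd1d1 for Bcl2a1b (0.988).

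**Figure D5:**
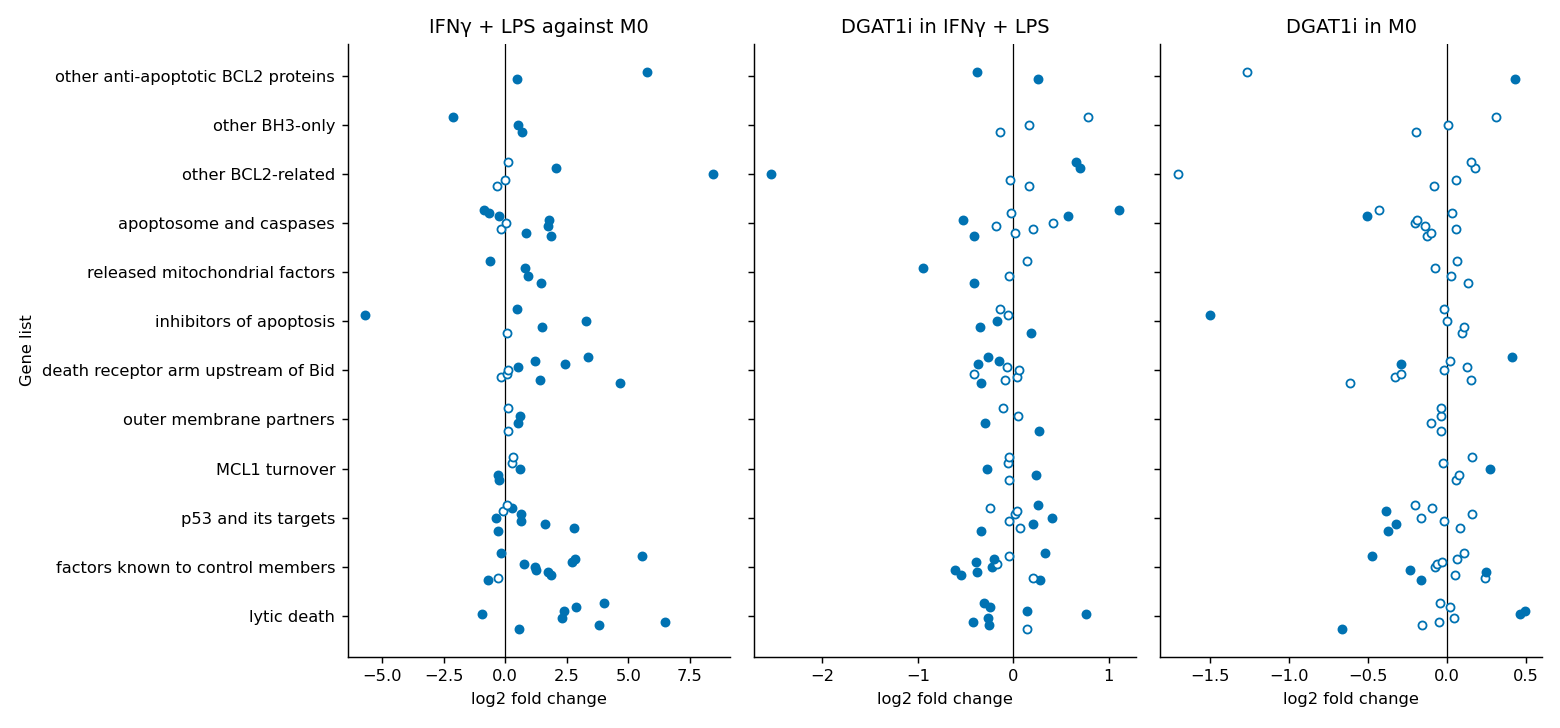
log2 fold changes (horizontal axes) of the other genes of the pathway by list, for IFNγ + LPS against M0 without DGAT1i, for DGAT1i in IFNγ + LPS and for DGAT1i in M0, filled where the edgeR adjusted p was under 0.05. Of 9 genes of the death receptor arm 6 rose with IFNγ + LPS, and 4 were lower and none higher with DGAT1i in stimulated cells.

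Around the 10 genes, other proteins of the family and the steps before and after them were counted by list, to be read against all genes tested, of which 37.1% rose and 36.2% fell with IFNγ + LPS and 13.5% were higher and 16.3% lower with DGAT1i in stimulated cells (11.0% and 13.4% in M0). Among other guardians, Bcl2a1a (5.77) and Bcl2l2 (0.46, but -0.01 with scaling by library size alone) rose with IFNγ + LPS, as log2 fold changes. With DGAT1i in stimulated cells Bcl2l2 was higher (0.26) and Bcl2a1a lower (-0.38), both lost with any of several libraries left out, at 0.14 to 0.27 over 3 libraries and at -0.39 to -0.28 over 4. In M0 Bcl2l2 was higher with DGAT1i without overlap (0.43, edgeR adjusted p = 2.46e-04). Of the BH3-only genes Bbc3 (PUMA, 0.67) and Bad (0.52) rose and Bmf (-2.12) fell, and none of the 3 was past the threshold with DGAT1i in either state. With scaling by library size alone Bbc3 and Bad were no longer past it, at 0.20 and 0.05. In the list of further relatives, Bcl2l14 had 1 read over the M0 libraries and 359 after IFNγ + LPS, and it was lower with DGAT1i in stimulated cells (log2 fold change -2.53). The mitophagy receptor Bnip3 rose with IFNγ + LPS (2.07) and was higher still with DGAT1i in stimulated cells (0.71). Its relative Bnip3l was higher with DGAT1i in stimulated cells (0.66) and had a log2 fold change of 0.12 with IFNγ + LPS, which did not pass the threshold. The pore former Bok had 13 reads in M0 and none after IFNγ + LPS, too few for a test.

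Upstream of Bid, 6 of the 9 death receptor genes tested rose with IFNγ + LPS and none fell. Fas rose by 4.67 on the log2 scale and Cflar, the gene of the caspase-8 inhibitor c-FLIP, by 3.37. In stimulated cells with DGAT1i 4 of the 9 were lower and none higher, led by Traf2 (-0.37) and Fas (-0.33, and -0.27 and not past the threshold without IFNγ + LPS replicate 2). The medians were 1.2 for IFNγ + LPS and -0.15 for DGAT1i in IFNγ + LPS. In M0 DGAT1i gave 1 higher and 1 lower.

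Downstream of the pores, 4 of 9 genes of the apoptosome and caspases rose with IFNγ + LPS and 3 fell, near the shares over all genes. Cytochrome c (Cycs) rose by 1.85 on the log2 scale, and with DGAT1i in stimulated cells it was lower, at -0.41. The nuclease Dffb and its inhibitor Dffa fell with IFNγ + LPS, by -0.87 and -0.66. In stimulated cells 2 genes of this list were higher with DGAT1i, Dffb (1.11) and Casp2 (0.57). Dffb had 28 reads over the IFNγ + LPS libraries and 54 with DGAT1i, and its calls were lost without IFNγ + LPS replicate 2 (-0.65 for IFNγ + LPS and 0.89 for DGAT1i) and, for DGAT1i, without replicate 3 of IFNγ + LPS with DGAT1i (0.78). Of the 4 factors released from mitochondria 3 rose and 1 fell with IFNγ + LPS, among them Diablo (SMAC, 1.46), Htra2 (0.91) and Aifm1 (-0.64). DGAT1i in stimulated cells left 2 of the 4 lower, Diablo (-0.41) and Endog (-0.95, and -0.76 and not past the threshold without IFNγ + LPS replicate 3).

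Of 5 inhibitors of apoptosis proteins 3 genes rose with IFNγ + LPS, led by Birc3 (3.28) and Birc2 (1.47), and Birc5 (survivin, also a mitosis gene) fell by 5.69. With DGAT1i in stimulated cells Birc2 was lower (-0.35), Birc3 lower by a small amount (-0.17, lost with any of 3 libraries left out, at -0.17 to -0.13) and Xiap higher (0.19, lost with any of 3 libraries left out, at 0.14 to 0.18). Of the channel genes in the outer membrane Vdac3 (0.59) and Vdac2 (0.53) rose with IFNγ + LPS, at 0.12 and 0.06 and not past the threshold with scaling by library size alone. DGAT1i in stimulated cells left Vdac1 higher (0.27) and Vdac2 lower (-0.29). Of 5 genes that act on the turnover of the MCL1 protein, the ligase subunit gene Fbxw7 rose with IFNγ + LPS (0.62, and 0.15 and not past the threshold with scaling by library size alone), and the deubiquitinase gene Usp9x (-0.31) and the ligase gene Huwe1 (-0.26) fell. With DGAT1i in stimulated cells Usp9x was higher (0.24) and Fbxw7 lower (-0.27, lost with any of 4 libraries left out, at -0.28 to -0.20).

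Among p53 and its targets 5 of 9 genes rose with IFNγ + LPS and 2 fell. Mdm2, which restrains p53, rose by 2.77 and Cdkn1a (p21) by 1.62, while Zmat3 (-0.38) and Trp53 itself (-0.31) fell. Trp53 was lower with DGAT1i in stimulated cells as well (-0.34), and Zmat3 (0.41) and Trp53inp1 (0.26) were higher. Single libraries decided these calls, since without IFNγ + LPS replicate 3 Zmat3 was not past the threshold for IFNγ + LPS (-0.27) or DGAT1i (0.30), nor for DGAT1i without replicate 2 of IFNγ + LPS with DGAT1i (0.20), nor Trp53 without replicate 1 of that group (-0.27). Trp53inp1 was lost with any of 7 libraries left out, at 0.18 to 0.29.

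Of 11 genes of factors known to control members of the family, 8 rose with IFNγ + LPS and 2 fell. Irf1 rose by 5.56 and Hif1a by 2.85, while Foxo3, whose protein drives Bcl2l11 in other settings, fell by 0.71 and Jun by 0.17 (0.12 and not past the threshold without IFNγ + LPS replicate 3). With DGAT1i in stimulated cells 6 were lower and 2 higher. Nfkb1 (-0.61) and Ddit3 (CHOP, -0.54) led the lower ones, and Jun (0.34) and Foxo3 (0.28) were higher. Of 8 genes of lytic death 7 rose with IFNγ + LPS, led by Zbp1 (6.47) and Casp4 (4.02), and Gsdme fell by 0.96. Under DGAT1i 5 of these were lower in stimulated cells, led by Zbp1 (-0.42) and Casp4 (-0.30), and Gsdme (0.76) and Ninj1 (0.15, lost with any of 3 libraries left out, at 0.11 to 0.14) were higher.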

How the data were processed

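RNA sequencing libraries of macrophages from bone marrow were grouped by the deposited sample titles. The authors deposited raw read counts per gene, without normalization, for the 12 libraries. The submitters' processing notes name the build GRCm38 and the tool DESeq2; the sources used here give no aligner, counter, strand setting or annotation release. The labels name NEBNext libraries and the methods of the study a stranded TruSeq kit, so that reads from overlapping genes on opposite strands may not be separated. Symbols, positions and exon lengths were taken from GENCODE M21 on GRCm38, which matched 47224 of 47937 gene identifiers without their version.

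Counts were analysed with edgeR 4.0.16 in R 4.3.3. filterByExpr kept 11760 genes, libraries were scaled by TMM, and all 12 libraries entered a robust glmQLFit with a mean for each group. Contrasts were tested by glmQLFTest, and genes with an adjusted p (Benjamini-Hochberg over all genes tested) under 0.05 were called. The script was tested on simulated data. Replicates differed by 1.93 to 4.06 times counting noise (chi-square per gene). Every member is named. Of 13 lists of pathway genes, those past the threshold with the 2 largest changes in each direction are named, for IFNγ + LPS and for DGAT1i in IFNγ + LPS, except 1 gene that is counted but not reported here. Members and lists were chosen with earlier results of these data known. The κB and IRF letters searched in promoters were shortened by 1 base at an end after matches of longer forms had been seen, with matches in the same windows of the members before and after. The shorter letters occur in a larger share of all windows. Alternatives were other scalings, filters, DESeq2 1.42.0, only the 6 libraries compared, a replicate block, each library left out, summed Bcl2a1 copies and the longest transcript. Plots were made in matplotlib 3.10.9.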

Additional observations from a re-analysis of the deposited data

Results flagged for a closer look

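The response to DGAT1i differed between stimulated and resting macrophages for 2 of the 10 genes, Bak1 (-0.49 on the log2 scale, edgeR adjusted p = 1.22e-04) and Bcl2l1 (-0.29, edgeR adjusted p = 0.0143), where negative values mean a lower response in stimulated cells. Of all genes tested 8.66% were called higher and 9.80% lower, so that 2 of 10 is near the share over all genes. Of 45 genes chosen from the lists for their changes, partly with DGAT1i in stimulated cells, the same test called 11 higher and 8 lower. That choice favours calls here, and over all 74 list genes tested 12 were higher and 13 lower. The difference was positive for Dffb (1.54), Casp2 (1.08), Zmat3 (0.57), Bnip3 (0.53), Cdkn1a (0.52), Bnip3l (0.51), Trp53inp1 (0.47), Foxo3 (0.44), Irf1 (0.43), Vdac1 (0.31) and Jun (0.23). It was negative for Cflar (-0.68), Ddit3 (-0.59), Diablo (-0.55), Fbxw7 (-0.54), Birc2 (-0.46), Nfkb1 (-0.38), Ninj1 (-0.35) and Hif1a (-0.27). Casp2 and Cflar changed in opposite directions in the 2 states, Casp2 from -0.50 in M0 to 0.57 in IFNγ + LPS and Cflar from 0.41 to -0.27, each past the threshold in both, as were Cdkn1a, Foxo3 and Fbxw7 with opposite signs. The calls for Jun, Trp53inp1, Zmat3, Dffb and Hif1a were lost with single libraries left out.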

How the results depend on the processing

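Of 340 values of the 10 genes under 7 other ways of processing, 331 kept their call, 6 became past the threshold, 1 was lost and 2 reversed. A call was kept if the value stayed on its side of the threshold, with the same sign where it was past it. With scaling by library size only, Bax under IFNγ + LPS reversed to -0.0741 without and -0.138 with DGAT1i, and Bcl2l2 to -0.00752 without DGAT1i, where this scaling lowered the median of all genes to -0.46 and -0.43. Of 600 values with 1 library left out, 588 kept, 4 lost and 8 gained a call, and none past the threshold reversed. Values not past it could change sign, as for Bcl2 with DGAT1i in IFNγ + LPS, at -0.05 to 0.19. For the genes of the lists, 706 of 732 values kept their call, 21 lost, 4 gained and 1 reversed, and with 1 library left out 1266 of 1332 kept it. Under DESeq2 the calls of Bcl2l2, Bcl2a1a, Xiap, Birc3, Fbxw7 and Trp53inp1 for DGAT1i in IFNγ + LPS were lost (DESeq2 adjusted p of 0.0649 to 0.110). So was that of Jun in the difference between responses. No total of called genes moved by over 1.5 times, but with scaling by library size only the genes called higher with IFNγ + LPS went from 4361 to 2340 and those called lower from 4254 to 7002, and with DGAT1i present from 4152 to 2333 and from 4151 to 6799. Same-numbered libraries deviated together little (correlations of -0.01 to 0.07, none of 12 over 0.1). Differently numbered libraries were not set beside them, so this does not decide whether the numbers pair libraries. With the replicate block 3568 genes were called for DGAT1i in IFNγ + LPS, against 3508 without it. Under it Bcl2a1d (-0.225) in that comparison and Bcl2a1b (-0.382) in the difference between responses were past the threshold. Genes under 1 CPM rest on at most 7.58 reads a library.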
